A study of Homo sapiens with 8 samples.

Results

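At paternally methylated imprinted loci, 4 intervals of the hg19 genome were followed through a loss of DNA methylation: the control region upstream of H19, the intergenic region upstream of MEG3, the start of MEG3, and the region between ZDBF2 and GPR1. Members were all CpGs that the deposited tables list inside these intervals, which came to 183 of the 3209182 CpGs listed in any library. They lay in 3 of the 4 intervals: 74 in the H19 control region (chr11:2018812-2024740), 48 at the MEG3 start (chr14:101290524-101293978) and 61 in the ZDBF2/GPR1 region (chr2:207114583-207136544). The intergenic region upstream of MEG3 (chr14:101275427-101278058) held 0 listed CpGs. The nearest ones lay 4416 bp before and 4179 bp after it, so no level is given for it.

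The cells were HUES64, an established human embryonic stem cell line, with a DNMT1 knockout genotype in every library, the baseline included. DNMT1 maintains methylation by restoring it on newly made DNA when a cell divides. DNMT1*, as known for this line and not defined in the labels, is an added, repressible copy that stands in for the missing enzyme, and taking it away starts the time course. Methylation was measured by RRBS, bisulfite sequencing of fragments cut at CCGG sites, on days 0 to 7. Each day has 1 library and the course was run once, without replicates, so p values over days do not cover the spread between courses. Whether the line is a single clone is not given in the sources used here.

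At an imprinted gene 1 parental copy is methylated over a control region in the germ line, and this difference is then copied through cell divisions by DNMT1. At H19, a long noncoding RNA next to the growth factor gene IGF2, the unmethylated maternal copy binds the insulator protein CTCF, and the methylated paternal copy does not. MEG3 is a maternally expressed noncoding RNA of the DLK1-MEG3 cluster, where the intergenic region carries the germline mark and the MEG3 start takes its methylation later. ZDBF2, a zinc finger gene expressed from the paternal copy, lies beside GPR1 (listed as CMKLR2 by RefSeq) and its antisense transcript. Some of these loci are known to gain methylation in some human pluripotent lines. The tables carry no allele information, so a level near the middle cannot be told apart from partial methylation of both copies.

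The start of MEG3 is shown first because it was the only gene start that could be placed inside an interval. RefSeq windows of 300 bases around gene starts (build GRCh38.p14) were matched by symbol for H19, MEG3 and ZDBF2. A window was placed on the listed CpGs by the spacing of its own CpGs alone. At MEG3, 7 of 7 listed CpGs fell on CpGs of the window at 1 place of the chromosome, inside the MEG3 start interval, and the next best place matched 5. That other place also matched all of the CpGs listed there, and it was passed over for its smaller number. For comparison, a start of ZDBF2, which lies outside its interval, matched at 29 listed CpGs, with 8 at the next best of the 115 places where all listed CpGs matched. The H19 window was not placed, so whether it lies inside its interval was not settled, and it is not printed. Capitals mark the CpGs listed in the deposited tables, and both sequences run on the plus strand, at chr14:100825858-100826157 and chr2:206274760-206275059 of GRCh38.p14.
MEG3: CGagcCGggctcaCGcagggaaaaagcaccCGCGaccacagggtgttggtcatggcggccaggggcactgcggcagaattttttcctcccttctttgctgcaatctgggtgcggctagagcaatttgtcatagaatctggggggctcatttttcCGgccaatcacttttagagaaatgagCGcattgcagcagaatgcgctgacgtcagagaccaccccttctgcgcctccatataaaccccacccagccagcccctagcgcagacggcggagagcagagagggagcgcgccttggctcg
ZDBF2: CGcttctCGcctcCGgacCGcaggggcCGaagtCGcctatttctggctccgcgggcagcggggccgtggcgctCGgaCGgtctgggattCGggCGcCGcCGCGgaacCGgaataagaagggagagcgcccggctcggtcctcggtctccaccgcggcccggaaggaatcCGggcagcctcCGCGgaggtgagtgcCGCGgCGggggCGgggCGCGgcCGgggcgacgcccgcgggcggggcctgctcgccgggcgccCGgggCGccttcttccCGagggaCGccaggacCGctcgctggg

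These gene starts stood at opposite ends of the scale. Over the 7 CpGs of the MEG3 window, 38 of 270 reads were methylated on day 7 (14.1%), against 350 of 400 on day 0 (87.5%). The 29 CpGs of the ZDBF2 window were unmethylated throughout: 1 of 1103 reads was methylated on day 7 (0.091%), against 2 of 1230 on day 0 (0.163%). The letters TGCCGC, the core of the motif that ZFP57 binds at methylated imprinted regions in mouse and human, were searched on both strands. They occur once in each printed window, from base 70 on the minus strand at MEG3 and from base 193 on the plus strand at ZDBF2. The H19 window and another window of ZDBF2, neither of them placed, hold none. Further MEG3 windows, also not placed, overlap the printed one and hold the letters as well. Of the 35116 RefSeq windows of this length, 16.7% hold them. A match of letters is a description and not a binding site.

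Before withdrawal the H19 control region stood at an intermediate level, and the other 2 intervals with listed CpGs stood far higher. To keep the CpGs the same on every day, reads were summed over the CpGs with a read in all 8 libraries, 60 at H19, 31 at the MEG3 start and 57 at ZDBF2/GPR1. On day 0, 1296 of 2990 reads were methylated at H19 (43.3%, Wilson 95% interval 41.6 to 45.1%). The MEG3 start stood at 1880 of 2202 reads (85.4%, 83.8 to 86.8%) and the ZDBF2/GPR1 region at 2502 of 3066 (81.6%, 80.2 to 82.9%). As a check of the label, H19 lay near the middle of the range of 20% to 80% taken for methylation on 1 copy, and the MEG3 start lay above that range on day 0. ZDBF2/GPR1 lay at its upper edge, where the call depends on the weighting. By reads it stood above 80% on day 0, also over all listed CpGs (82.3%), and the mean over its CpGs was 78.1%. After a day of withdrawal, on day 1, 78.0% of its reads were methylated. A read is counted once at each CpG it covers, and RRBS reads carry no molecular identifiers. The Wilson intervals take all these counts as independent, so they can be too narrow even for counting error. They do not cover the spread between libraries.

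All 3 intervals lost most of their methylation within the week. A level is a mean over cells, so fewer cells with a methylated copy and partial loss in every cell cannot be told apart. H19 read 43.3%, 43.3%, 33.7%, 28.2%, 8.46%, 13.1%, 6.05% and 7.50% methylated on days 0 to 7. Its level was flat over the first day, and the largest step fell between days 3 and 4. The MEG3 start read 85.4%, 80.4%, 67.8%, 48.9%, 26.6%, 20.6%, 15.2% and 12.8%, and was lower on each day than on the day before. ZDBF2/GPR1 read 81.6%, 78.0%, 70.1%, 53.7%, 38.2%, 37.6%, 21.5% and 17.3%, also lower on each day, with the smallest step between days 4 and 5. With equal weight per CpG its level was not lower on day 5, at 31.1%, than on day 4, at 30.7%. On day 7 the intervals kept 17.3% of the day 0 level at H19, 14.9% at the MEG3 start and 21.2% at ZDBF2/GPR1. The libraries of days 3, 4 and 5 are shallow, with 155 to 355 reads per interval, against 962 to 3066 on the other days. On day 4 the H19 value was 23 of 272 reads, with a Wilson interval of 5.70 to 12.4%, and on day 5 it was 38 of 289, with 9.73 to 17.5%.

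**Figure D1:**
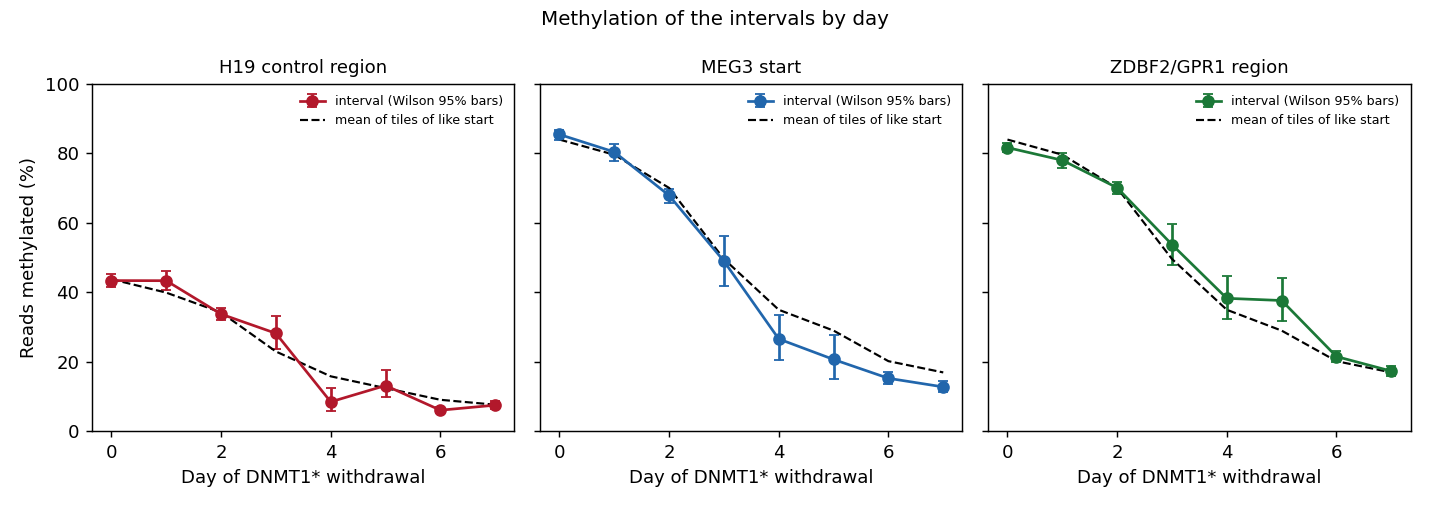
Share of reads methylated (y axis, percent) in each interval by day of DNMT1* withdrawal (x axis); points are 1 library each with Wilson 95% bars, and the dashed line is the mean of autosomal 1-kb tiles in the same 5-point range of starting level. H19 starts at 43.3% and ends at 7.50%, the MEG3 start at 85.4% and 12.8%, and ZDBF2/GPR1 at 81.6% and 17.3%. The MEG3 start lies below its dashed line from day 2 on, with 26.6% against 34.9% on day 4.

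As an exponential decline, the MEG3 start lost 26.5% of its level per day, a slope of the natural log of -0.307 ± 0.023 per day (SE, n = 8 libraries) and a halving time of 2.26 days. The two-sided exact permutation p over the 40320 orders of the days was 4.96e-05, the smallest it can give. ZDBF2/GPR1 lost 20.7% per day, at -0.232 ± 0.023 (exact permutation p = 4.96e-05) and a halving time of 2.98 days. H19 lost 26.8% per day, at -0.311 ± 0.052 (exact permutation p = 0.0017) and a halving time of 2.23 days. Within the 5 deep libraries, of days 0, 1, 2, 6 and 7, the slopes were -0.305 at H19 (exact permutation p = 0.042), -0.304 at the MEG3 start and -0.241 at ZDBF2/GPR1 (exact permutation p = 0.0083 each, the smallest that 120 orders can give).

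The MEG3 start, which stood a little higher than ZDBF2/GPR1 on day 0, declined faster. The difference in slope was -0.0749 ± 0.0231 per day (two-sided exact permutation p = 0.021, unadjusted), and -0.0622 within the 5 deep libraries (exact permutation p = 0.017). It missed 0.05 without day 0, at -0.0763 (exact permutation p = 0.058), and over only those CpGs that stood between 20% and 80% on days 0 and 1, at -0.0566 (p = 0.45). It was 1 of 4 pairs of slopes compared, all chosen after the levels were seen. The slope of the MEG3 start minus that of H19 was 0.0040 ± 0.0381 (exact permutation p = 0.92), and that of ZDBF2/GPR1 minus that of H19 was 0.0790 ± 0.0460 (exact permutation p = 0.14). Neither passed, and the errors leave room for differences of the size seen between MEG3 and ZDBF2/GPR1.

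H19 was bounded by methylated CpGs on the side of its first listed CpG and passed into CpGs of mixed level on the other, while the MEG3 start lay close to its flanks on day 0 and ZDBF2/GPR1 had methylated CpGs before it and unmethylated ones after it. On day 0 the control region stood at 43.3%, against 80.1% in the 10 kb before it (101 CpGs) and 75.6% in the 10 kb after it (69 CpGs). Its first listed CpG, at 2019090, had 47.2% on day 0, and the 13 CpGs in the 1 kb before that one had 83.8%. At the other end, the last listed CpG, at 2023781, had 3 of 10 reads methylated on day 0, and the 19 CpGs in the 2 kb after the interval had 48.6% together. Those 19 were mixed, from 0 to 92% over days 0 and 1, and their pooled level was as intermediate as that of the interval. Of the 69 CpGs after the interval, 7 stood at 20% or less on days 0 and 1. On day 7 the interval had 7.50%, against 13.5% before it and 14.4% after it, and it was lower than both on each of the 8 days. It kept 17.3% of its day 0 level, against 16.9% before it and 19.1% after it. Its slope differed from that of the flanks together by -0.0378 ± 0.0416 per day, which did not pass (two-sided exact permutation p = 0.40, unadjusted).

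At the MEG3 start the interval stood at 85.4% on day 0, against 78.4% in the 10 kb before it (8 CpGs) and 81.2% in the 10 kb after it (41 CpGs). On day 7 it had 12.8%, against 13.3% before and 20.6% after. Around the upstream intergenic interval, which has no listed CpG, the 17 CpGs in the 10 kb before it had 17.5% on day 7, against 79.4% on day 0. The 6 CpGs in the 10 kb after it had 11.5% on day 7, against 78.0% on day 0. ZDBF2/GPR1 stood at 81.6% on day 0, against 73.3% before it (15 CpGs) and 0.255% after it (26 CpGs, all at 20% or less). The CpGs after it had 0.142% on day 7.

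**Figure D2:**
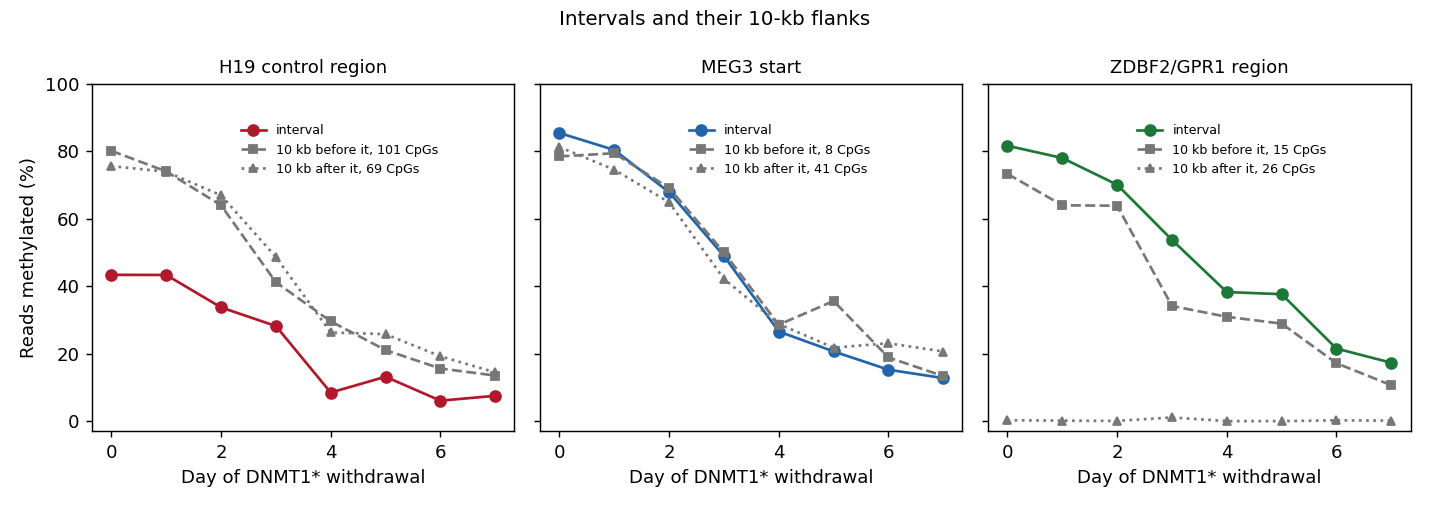
Share of reads methylated (y axis, percent) by day of withdrawal (x axis) in each interval (coloured circles) and in the 10 kb before (grey squares) and after it (grey triangles), 1 library per day. H19 lies below both flanks on each of the 8 days, and the flank after ZDBF2/GPR1 stays near 0 (0.255% on day 0, 0.142% on day 7).

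Single CpGs were read in the 5 deep libraries, where 149 of the 183 had 10 or more reads on each of these days. All 149 were lower over the pooled reads of days 6 and 7 than over those of days 0 and 1. So were 1706684 of the 1706770 autosomal CpGs with such depth and at least 20% on days 0 and 1 (100% when rounded), so the members' count does not stand apart from the background. At H19 the 54 CpGs lay close together on day 7, at 7.38 ± 4.95%, as on day 0, at 41.7 ± 8.12% (SD over CpGs). None of the 54 was at 80% or more and none at 20% or less on day 0. On day 1, 3 were at 80% or more and 3 at 20% or less. Outside the 54, some CpGs went beyond these limits on day 0. The one at 2020504 had 1 of 29 reads methylated and that at 2022322 had 6 of 7, both picked after their values were seen. Among the 54, the lowest on day 0 was the CpG at 2020552, with 4 of 19 reads methylated, and the highest was at 2021658, with 27 of 45. The highest on day 7 was at 2020104, with 10 of 45 reads, and 7 CpGs had none. The one at 2020065 among these had 0 of 71 reads, which allows a share of up to 4.23%.

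The 36 CpGs of the MEG3 start averaged 11.7 ± 5.66% on day 7, against 83.5 ± 9.43% on day 0 (SD over CpGs), with 26 of them at 80% or more on day 0. The lowest on day 0, at 101290665, had 23 of 45 reads methylated. All 10 CpGs below 80% on day 0 lay in the tile chr14:101290001-101291000. The highest, at 101292929, had 92 of 97. The first CpG of the interval, at 101290524, was the highest on day 7, with 22 of 76 reads. The lowest on day 7, at 101290653, had 0 of 20, which allows up to 15%.

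ZDBF2/GPR1 was the most uneven of the 3. Its 59 CpGs averaged 17.2 ± 9.27% on day 7, against 78.6 ± 18.4% on day 0 (SD over CpGs). On day 0, 37 were at 80% or more and 11 below 60%. Low and high CpGs lay close together: 44.7% at 207115239 and 93.1% at 207115255 on day 0, a pair picked after its values were seen. The lowest on day 0 was at 207115687, with 10 of 37 reads, and the highest at 207115828, with 63 of 65. On day 7 the CpG at 207115624 was highest, with 5 of 12 reads, and 4 CpGs had none, among them that at 207115221 with 0 of 35, which allows up to 8.57%.

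**Figure D3:**
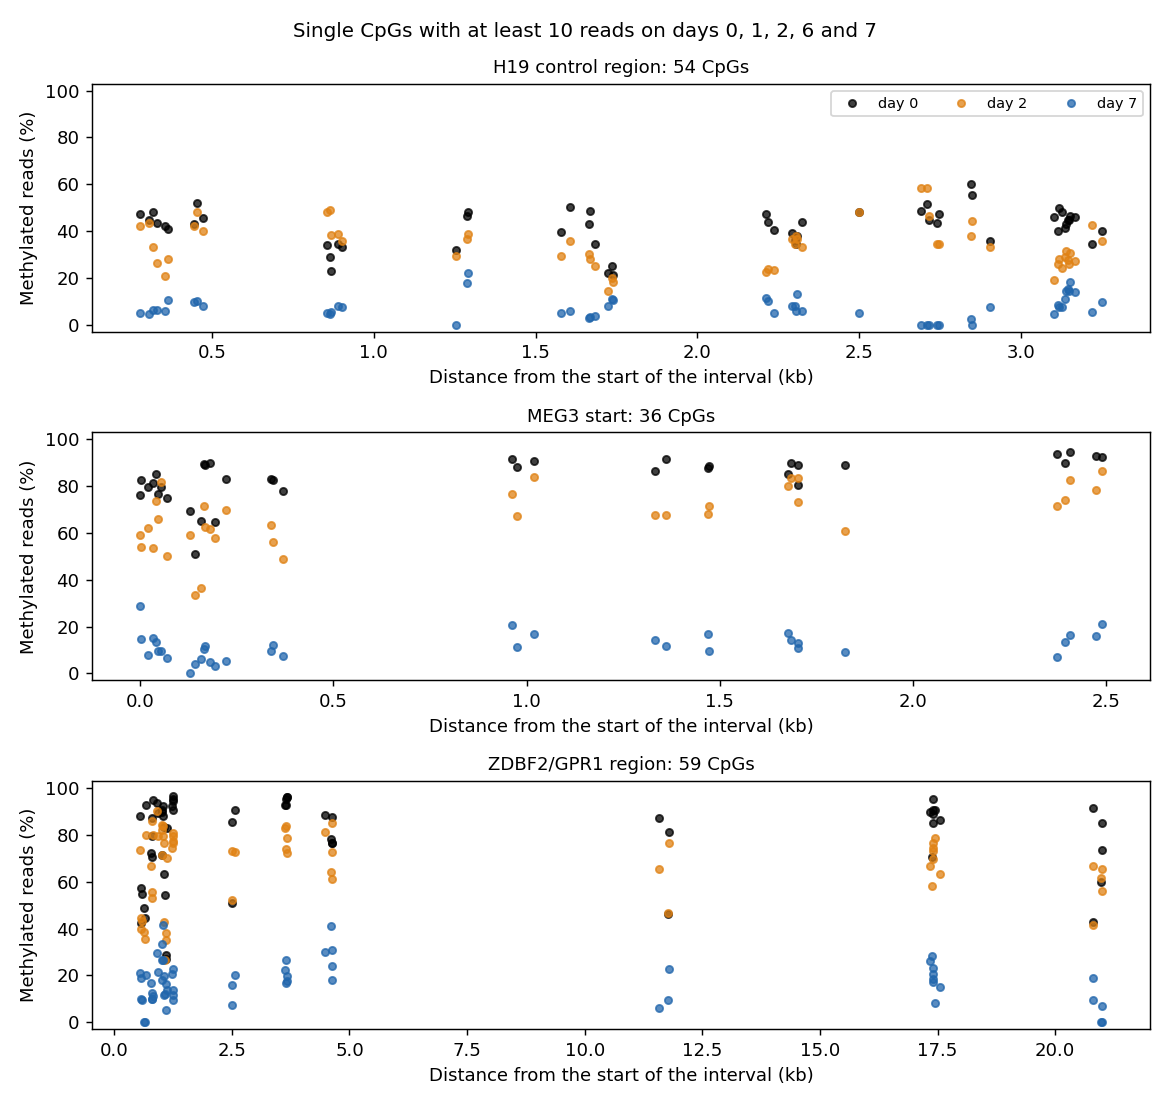
Methylated reads (y axis, percent) at single CpGs against the distance from the start of the interval (x axis, kb), for CpGs that had 10 reads or more on days 0, 1, 2, 6 and 7; black is day 0, orange day 2 and blue day 7. The 54 CpGs of H19 form 1 band on day 0 (41.7 ± 8.12%, SD over CpGs), those of the MEG3 start a high band (83.5 ± 9.43%), and those of ZDBF2/GPR1 spread from 27.0% to 96.9%.

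Along each interval the loss was then read in 1-kb tiles, with a quasi-binomial regression on day fitted to 202674 autosomal tiles and the intervals, and p values adjusted by Benjamini-Hochberg over all of them. Of the 11 tiles with CpGs of the intervals that had enough CpGs and reads to be tested, 11 fell and 0 rose, against a background of 88.8% of all tiles that fell and 0.00493% that rose. That background includes tiles that started below 20%. In the ranges where the intervals started, every tile fell. These were 1310 of 1310 at 40 to 45% and, outside the intervals, 41110 at 80 to 85%. The only tile of the intervals in the latter range, chr2:207119001-207120000, fell as well. The members' count thus does not stand apart from tiles of like start. The median slope was -0.443 log odds per day over these 11 tiles and -0.463 over all tiles. The intervals themselves changed by -0.386 ± 0.045 at H19, -0.589 ± 0.044 at the MEG3 start and -0.469 ± 0.039 at ZDBF2/GPR1 (SE; adjusted p = 4.0e-13, 3.8e-20 and 5.2e-18, limma-moderated quasi-binomial test). At H19 the 4 tested tiles were alike, but they do not reach the end of the interval. These tiles started between 38.9%, at chr11:2022001-2023000, and 46.0%, at chr11:2019001-2020000, over days 0 and 1. They kept between 13.0%, at that first tile, and 17.9%, at chr11:2020001-2021000, of that level over days 6 and 7.

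The 3 tiles of the MEG3 start began at 79.1% (chr14:101290001-101291000), 87.9% and 90.1% (chr14:101292001-101293000). They kept 18.2%, 16.6% and 14.9% in the same order, so the highest at the start was the lowest in the share kept. In ZDBF2/GPR1 the 4 tiles began between 73.5% (chr2:207135001-207136000) and 88.0% (chr2:207131001-207132000). The first of these kept 10.6%, and chr2:207119001-207120000 kept 37.4%. Their shallowest libraries had 15 reads in the first and 16 in the other, and on days 6 and 7 they had 152 to 172.

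Whether the intervals lost methylation at another rate than the rest of the genome was asked against tiles in the same 5-point range of starting level. The common course of those tiles was put into the fit as an offset, and the slope beyond it was tested. There were 1310 tiles at 40 to 45%, the range of H19, and 41111 at 80 to 85%, the range of both others. H19 departed by -0.037 ± 0.036 log odds per day (SE; adjusted p = 0.93, unadjusted 0.30), the MEG3 start by -0.076 ± 0.032 (adjusted p = 0.60, unadjusted 0.021) and ZDBF2/GPR1 by 0.038 ± 0.028 (adjusted p = 0.87, unadjusted 0.19; limma-moderated quasi-binomial test). None passed, nor did any of the 11 tiles, of which chr2:207119001-207120000 came nearest, at 0.119 ± 0.040 (adjusted p = 0.48, unadjusted 0.0070). Few tiles pass this test anywhere: 0 of 202674 lost more than the common course (0.0%), with 8860 at an unadjusted p below 0.05, and 6 lost less (0.00296%), with 5543. On simulated reads of 20000 tiles the test found 76% of 50 tiles made to lose 0.2 log odds per day more and 98% of 50 made to lose 0.2 less. It found 16% and 22% at 0.1, so a departure of the size fitted at the MEG3 start would mostly be missed in such tiles. The simulated tiles had the depths of real tiles, and the intervals were not simulated. The simulated p values were adjusted over 20000 tiles, against 202674 in the real fit, where few passed. All these shares can therefore be too high for the real fit.

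By day, the level of the MEG3 start minus the mean of its tiles was -8.39 points on day 4, -4.93 on day 6 and -4.17 on day 7. ZDBF2/GPR1 was 8.66 points above the same tiles on day 5 and 0.373 points above on day 7. The gap of day 5, a shallow library, depends on the weighting by reads. The mean over the CpGs of ZDBF2/GPR1 was 31.1% on that day, against 29.0% in the tiles. H19 lay on both sides of its tiles. It had 43.3% on day 1, against 39.9% in its tiles, and 28.2% on day 3, against 22.9%. It had 8.46% on day 4, against 15.8%, and 7.50% on day 7, against 7.64%. Over days 6 and 7, H19 kept 15.6% of its starting level, against a median of 18.0% over the 129 tiles of its range with 100 or more reads in every library (the middle 80% of them 13.6 to 22.8%). The MEG3 start kept 16.7% and ZDBF2/GPR1 24.3%, against a median of 21.2% over 1270 such tiles (15.1 to 26.0%). All 3 intervals lay within those ranges of the share kept. By the departure from the common course, the MEG3 start (-0.076) lay outside the middle 80% of the tiles at 80 to 85%, -0.068 to 0.052. ZDBF2/GPR1 (0.038) lay within it, and H19 (-0.037) lay within that of its own tiles, -0.083 to 0.063. The departure ranges cover tiles of any tested depth.

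**Figure D4:**
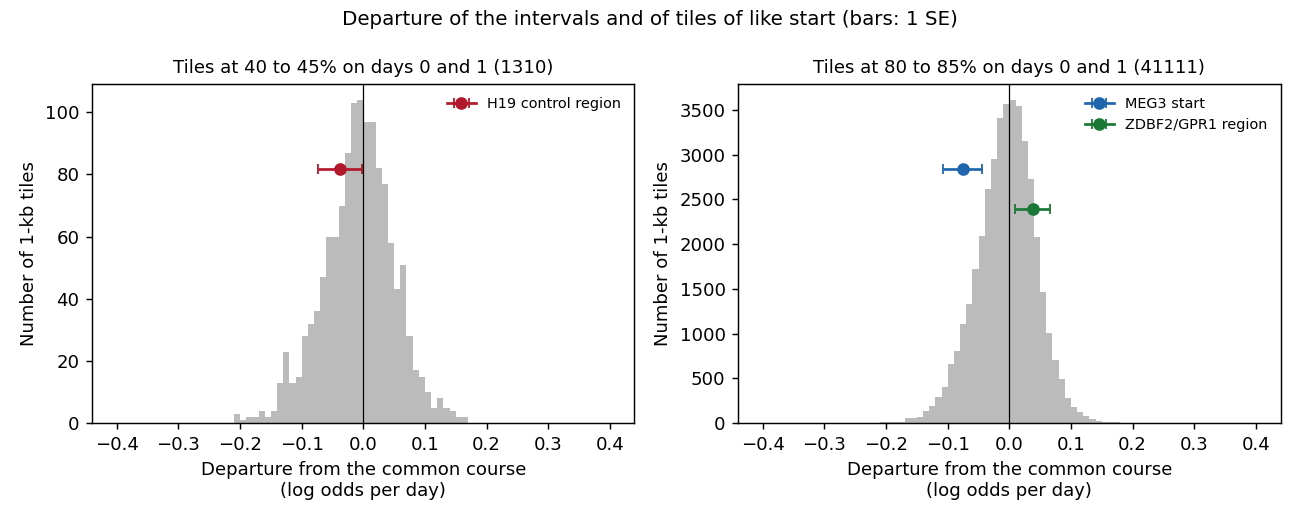
Number of 1-kb tiles (y axis) by their departure from the common course of tiles of like start (x axis, log odds per day, negative for faster loss); coloured points are the intervals with bars of 1 SE, at an arbitrary height. H19 (-0.037) is set among 1310 tiles at 40 to 45%, and the MEG3 start (-0.076) and ZDBF2/GPR1 (0.038) among 41111 tiles at 80 to 85%.

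The tiles most like each interval over the 8 days were sought among 16922 tiles with 100 or more reads in every library, by the root-mean-square difference in level. For H19 they were chr1:111216001-111217000, chr12:131783001-131784000 and chr8:145955001-145956000, at 1.92, 1.93 and 2.18 points. For the MEG3 start they were chr1:6143001-6144000, chr4:6380001-6381000 and chr7:953001-954000, at 1.904, 1.922 and 2.004 points. For ZDBF2/GPR1 they were chr14:20334001-20335000, chr16:24586001-24587000 and chr3:51346001-51347000, at 0.827, 1.22 and 1.46 points. The genes there were not looked up, since no hg19 annotation was used.

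Maternally methylated control regions were set beside these, from 13 intervals recalled from published lists, of which 11 had enough reads. In 6 of them, at KCNQ1OT1, SNURF, MEST, GRB10, PLAGL1 and L3MBTL1, the start was intermediate as at H19, at 32.8 to 48.1% over days 0 and 1. H19 had 7.50% on day 7, against 4.98 to 8.01% in these 6, and kept 15.6% over days 6 and 7, against 13.5 to 20.1%. In 4 others, at PEG3, IGF2R, NNAT and the XL start of GNAS, the start was at 80.5 to 90.6%, like the MEG3 start and ZDBF2/GPR1. The MEG3 start kept 16.7% and ZDBF2/GPR1 24.3%, against 13.8 to 20.6% in these 4. The eleventh, at the A/B start of GNAS, had 1.71% over days 0 and 1 and did not pass the test for a fall (adjusted p = 0.73, limma-moderated quasi-binomial test). No test was made between the paternal and the maternal regions, and none of the 11 passed the test for a departure from tiles of like start.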

How the data were processed

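RRBS of 8 libraries, 1 per day, was analysed from CpG tables. Each deposited line gives the methylated and total reads of 1 CpG and a score that the authors set to 1000 times the methylated share. The score equalled 1000 times the share of the reads, within 1, in 100% of lines and was not used further. The genome build, per the submitters' processing notes, was hg19. For the aligner, methylation caller and duplicate handling, the sources used here give nothing. Read calls summed over CpGs numbered 12359218 to 161534152 per library, and the median was 4 reads per CpG on days 3, 4 and 5 and 21 to 44 on the others.

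Starts were changed to count from 1. Tiles of 1 kb needed 3 CpGs read in all 8 libraries and 10 reads in each. Tiles with none or all of their reads methylated were not fitted. Dispersions were moderated with limma's squeezeVar (limma 3.58.1, R 4.3.3; Python 3.11.15, SciPy 1.17.1) and kept at 1 or more. A first version called too many unchanged simulated tiles, so reads were scaled to effective reads with an intraclass correlation of 0.0047. In the final version 9.45% of the simulated calls of a trend were false, over 20000 tiles, and 0% of those of a departure. The MEG3 upstream interval could not be fitted. Bounds of the maternal regions were recalled from published lists and not checked against an annotation. Named tiles and CpGs are the highest and lowest of each interval at the start and at the end, and the 3 nearest tiles; other names are marked as chosen after their values were seen. The intervals, lists and tests were chosen with earlier results of these data known. Alternatives were all listed CpGs, equal weight per CpG, CpGs at 20 to 80%, the 5 deep libraries, 30 reads per tile, no moderation, 10-point ranges, 5-kb tiles and each day left out.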

Additional observations from a re-analysis of the deposited data

How the results depend on the processing

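The falls of H19, the MEG3 start and ZDBF2/GPR1 kept their direction and passed 0.05 under every alternative tried, both as slopes of the natural log (exact permutation) and as slopes of the log odds (quasi-binomial test). With each day left out in turn, the natural-log slope ran from -0.346 to -0.288 at H19, from -0.335 to -0.299 at the MEG3 start and from -0.259 to -0.217 at ZDBF2/GPR1. The departures from tiles of like start did not pass under any alternative, with adjusted p of 0.30 to 1 at the MEG3 start, 0.72 to 1 at H19 and 0.70 to 1 at ZDBF2/GPR1. The equal-weight mean gave a value only at H19, where 2 CpGs had 10 reads in every library. No paired analysis was possible because there is 1 library per day.

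Counts over all tiles moved more. Tiles that fell numbered 179940 in the main fit and 61241 with 30 reads per tile, which is 76.5% of 80069 tiles tested, against 88.8% of 202674. Tiles that rose numbered 10, and 62 in the 5 deep libraries, 6 with 30 reads, 600 without moderation and 5 to 31 with a day left out (31 without day 3, 26 without day 4, 24 without day 7, 18 without day 5 and 5 without day 6). Tiles that lost more than the common course numbered 0, and 3 with all listed CpGs, 327 in the 5 deep libraries, 2 with 30 reads, 680 without moderation, 1 with 10-point ranges, 1 with 5-kb tiles and 0 to 3 with a day left out (3 without day 3, 2 without day 4). Tiles that lost less numbered 6, and 279 in the 5 deep libraries, 476 without moderation, 2 with 5-kb tiles and 0 to 8 with a day left out (1 without each of days 0, 1 and 6, and 0 without day 7). The cause of these shifts was not tested. Depth limits the single CpGs of days 3 to 5, where the median over all listed CpGs was 4 reads, and these days are given over whole intervals or tiles.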
